A study of Homo sapiens with 14 samples.

Results

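The HOX cluster genes are the 39 human protein-coding genes whose symbol is HOXA, HOXB, HOXC or HOXD followed by a number, taken here from the 62757 genes counted. The rule uses the gene name alone. The study sequenced RNA from OVCAR3 and A2780, established human ovarian cancer cell lines, to follow RNA editing by ADAR1 in cisplatin resistance. The 14 libraries form 7 groups of 2. Of the OVCAR3 groups, those labelled OVCAR3-DDP sh2 and OVCAR3-DDP sh1 carry short hairpin RNAs against ADAR1. OVCAR3-DDP shNC carries a hairpin used here as the control, OVCAR3-DDP is the cisplatin-resistant derivative without a hairpin, and OVCAR3-WT is the parental line. A2780-DDP and A2780-WT are the resistant derivative and the parental line of A2780. The labels give no cisplatin dose, no count of clones or cultures and no hairpin sequence, and do not say whether replicates came from separate cultures. The p-values therefore measure the spread between these samples alone, which may be technical. Editing is not visible in gene counts and was not analysed here.

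HOX genes encode homeodomain transcription factors that give cells positional identity along the body axis. They lie in 4 clusters in the order in which they are used from head to tail, so low numbers are anterior and high numbers posterior. The members HOXA9, HOXA10, HOXA11 and HOXA13 pattern the Mullerian duct, the embryonic source of the fallopian tube, uterus, cervix and upper vagina. Most of the roles given below were worked out in mouse embryos. Most HOX proteins bind DNA together with TALE homeodomain partners (PBX, MEIS and PKNOX proteins), and cluster states are kept by Polycomb repressors and MLL or trithorax activators. In GENCODE 29 on GRCh38 the HOXA cluster lies on chromosome 7 from 27092993 to 27200106 with 11 members. HOXB lies on chromosome 17 from 48528526 to 48729178 with 10, HOXC on chromosome 12 from 53938765 to 54056030 with 9, and HOXD on chromosome 2 from 176092891 to 176190907 with 9. Below, 8 members numbered 1 to 3 are called anterior, 15 numbered 4 to 8 central, and 16 numbered 9 to 13 posterior.

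The promoters of HOXD13, HOXD10, HOXD1 and HOXA13 are shown because these genes carried the widest gaps between groups in the HOXD cluster and, for HOXA13, in A2780. Each is the RefSeq window on GRCh38.p14 that runs 250 bases before to 50 bases after the start, written 5′ to 3′ in the sense of the gene, with every CG dinucleotide in capitals. HOXD13 is at chr2:176092471-176092770 on the plus strand, HOXD10 at chr2:176116528-176116827 (plus), HOXD1 at chr2:176188418-176188717 (plus) and HOXA13 at chr7:27200042-27200341 (minus).
HOXD13: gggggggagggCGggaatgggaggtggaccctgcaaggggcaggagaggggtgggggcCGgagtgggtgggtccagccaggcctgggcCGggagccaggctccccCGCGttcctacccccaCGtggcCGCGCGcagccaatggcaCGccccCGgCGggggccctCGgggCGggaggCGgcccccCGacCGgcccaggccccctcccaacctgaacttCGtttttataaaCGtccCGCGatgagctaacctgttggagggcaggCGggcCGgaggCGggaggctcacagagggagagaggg
HOXD10: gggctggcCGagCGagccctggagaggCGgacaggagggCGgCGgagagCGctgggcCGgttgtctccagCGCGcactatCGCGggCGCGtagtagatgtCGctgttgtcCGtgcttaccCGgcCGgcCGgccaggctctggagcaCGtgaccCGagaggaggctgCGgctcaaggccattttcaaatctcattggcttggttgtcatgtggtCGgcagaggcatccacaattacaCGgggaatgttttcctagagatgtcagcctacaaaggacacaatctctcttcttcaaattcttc
HOXD1: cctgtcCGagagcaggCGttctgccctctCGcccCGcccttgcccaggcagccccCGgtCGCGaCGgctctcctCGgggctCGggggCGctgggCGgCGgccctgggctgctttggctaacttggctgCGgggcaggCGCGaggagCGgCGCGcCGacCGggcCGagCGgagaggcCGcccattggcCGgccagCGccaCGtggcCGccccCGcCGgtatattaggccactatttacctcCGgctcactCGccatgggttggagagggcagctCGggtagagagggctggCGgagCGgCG
HOXA13: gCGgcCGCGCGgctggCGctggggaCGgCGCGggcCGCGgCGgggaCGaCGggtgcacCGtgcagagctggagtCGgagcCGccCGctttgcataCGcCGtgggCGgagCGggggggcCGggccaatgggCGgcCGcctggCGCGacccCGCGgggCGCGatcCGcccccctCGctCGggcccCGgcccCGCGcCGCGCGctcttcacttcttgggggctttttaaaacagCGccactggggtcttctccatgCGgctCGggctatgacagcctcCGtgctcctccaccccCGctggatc
These windows held 24, 23, 36 and 44 CG dinucleotides in that order. RefSeq windows were found for 20 of the 39 members, 27 windows in all, and their median was 22 CG, against a median of 14 over all 35116 windows. HOXA13 had the highest number of CG among the HOX windows. The letters TATAAA, searched on both strands, stood in 5 of the 27 HOX windows, those of HOXA3, HOXA9, HOXA10 and HOXD13, and in 11.5% of all windows. TTTATG, searched as a caudal-type site on both strands, stood in 3 HOX windows (HOXA3, HOXA9 and HOXD8) and in 10.6% of all windows. A direct repeat of AGGTCA with 5 bases between the copies, bound by retinoic acid receptors, was searched on both strands and stood in 0 of the 27 and in 2 of all windows (0.0057%), so its absence here says nothing about HOX windows. A match is a description of letters and not a site, and no match says nothing of the factor.

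Each library held 20428538 to 49115255 counts on genes, of which 7580 to 43376 fell on HOX genes. ADAR, which encodes ADAR1, averaged 115 ± 0.989 CPM with sh2 and 272 ± 24.5 CPM with sh1, against 423 ± 34.1 CPM with shNC (SD, n = 2 each; CPM is a gene's count scaled to the library's total count on genes). A check of the labels bears on all OVCAR3 results. The 3 hairpin groups are labelled as made in OVCAR3-DDP cells, yet over 17237 genes 66.4% to 68.3% were nearer in level to OVCAR3-WT than to the OVCAR3-DDP-labelled libraries. Of 11 markers of Mullerian and ovarian epithelium, 9 were above 1 CPM in every hairpin and OVCAR3-WT library, and 4 were in the OVCAR3-DDP-labelled libraries and in A2780. The 4 were not the same markers in each. EPCAM, KRT8 and KRT18 were shared, beside WT1 in the OVCAR3-DDP-labelled libraries, FOLR1 in A2780-WT and MSLN in A2780-DDP. WT1 went the other way, at a mean of 19.0 CPM in the OVCAR3-DDP-labelled libraries and 0 counts in OVCAR3-WT. Over the 17237 genes, the Pearson correlation of group means on log2(CPM + 0.1) was 0.668 between the OVCAR3-DDP-labelled libraries and OVCAR3-WT. With A2780-WT and A2780-DDP it was 0.751 and 0.768. Over the 39 HOX genes these values were 0.68, 0.46 and 0.46. Whether a label is at fault, and which, cannot be told here, and the cause was not tested. These libraries are therefore called OVCAR3-DDP-labelled throughout. Below, a rise or fall in OVCAR3 means a difference between these libraries and OVCAR3-WT. It is not shown to be a change within the line. Hairpin libraries also had 0.726% to 0.947% mitochondrial messenger RNA, against 2.31% to 3.51% in the other libraries. Of their reads 4.64% to 4.99% were not uniquely aligned, against 2.36% to 3.22% in the other libraries. They held 20428538 to 23746370 counts on genes, against 31195174 to 49115255. The part of these differences in the results was not tested. Over all libraries, 6 immune markers summed to 0.833 to 5.28 CPM and 3 endothelial markers to 0.0869 to 2.87 CPM. The other marker lists were higher and moved with the comparisons. The 5 neural markers summed to 32.1 and 32.1 CPM in the OVCAR3-DDP-labelled libraries, against 4.54 and 4.23 CPM in OVCAR3-WT, where 3 of the 5 were at 0. NEFL and NEFM made up this rise, at means of 16.4 and 14.9 CPM against 0. INA (mean 0.131 against 1.59 CPM) and TUBB3 (0.594 against 2.80 CPM) were lower, and STMN2 stayed at 0.0290 CPM or under. The 5 neural markers summed to 169 and 177 CPM in A2780-DDP, against 115 and 114 CPM in A2780-WT, nearly all from INA, and to 8.69 to 15.8 CPM in the hairpin libraries. The 6 fibroblast markers, mostly COL1A1 in OVCAR3 and COL3A1 in A2780, summed to 123 and 115 CPM in the OVCAR3-DDP-labelled libraries, against 79.6 and 76.3 CPM in OVCAR3-WT. They summed to 609.9 and 633 CPM in A2780-DDP, against 507 and 485 CPM in A2780-WT, and to 113 to 145 CPM in the hairpin libraries. The part of these markers in the results was not tested. In RNA from bulk cells, fewer cells of a type and less RNA per cell cannot be told apart.

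The groups differed in how much HOX RNA they held and in the clusters it came from. Summed over the 39 genes, the OVCAR3-DDP-labelled libraries had 1151 and 1148 CPM, against 364 and 335 CPM in OVCAR3-WT. A2780 showed the opposite order, with 638 and 605 CPM in A2780-DDP, against 1269 and 1326 CPM in A2780-WT. The hairpin libraries held 329.96 to 379.7 CPM, a range that overlaps OVCAR3-WT. The OVCAR3-DDP-labelled libraries drew nearly equally on HOXA, HOXB and HOXC, at 26.6% ± 0.364, 27.0% ± 0.201 and 25.6% ± 0.259 of their HOX counts, and 20.7% ± 0.305 on HOXD, which was 7.60% ± 1.03 in OVCAR3-WT (SD, n = 2 each). The HOXB share was 51.5% and 51.4% in A2780-DDP, against 68.4% and 68.5% in A2780-WT. HOXA made up only 1.60% to 3.01% of HOX counts in the A2780 libraries. In the hairpin libraries HOXC held 54.0% to 58.8%. Posterior members made up 77.1% to 78.8% of HOX counts in the hairpin libraries, 61.7% and 62.3% in the OVCAR3-DDP-labelled libraries, and 71.1% and 68.6% in OVCAR3-WT. They made up 34.3% and 35.1% in A2780-DDP, against 26.3% and 25.7% in A2780-WT.

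**Figure D1:**
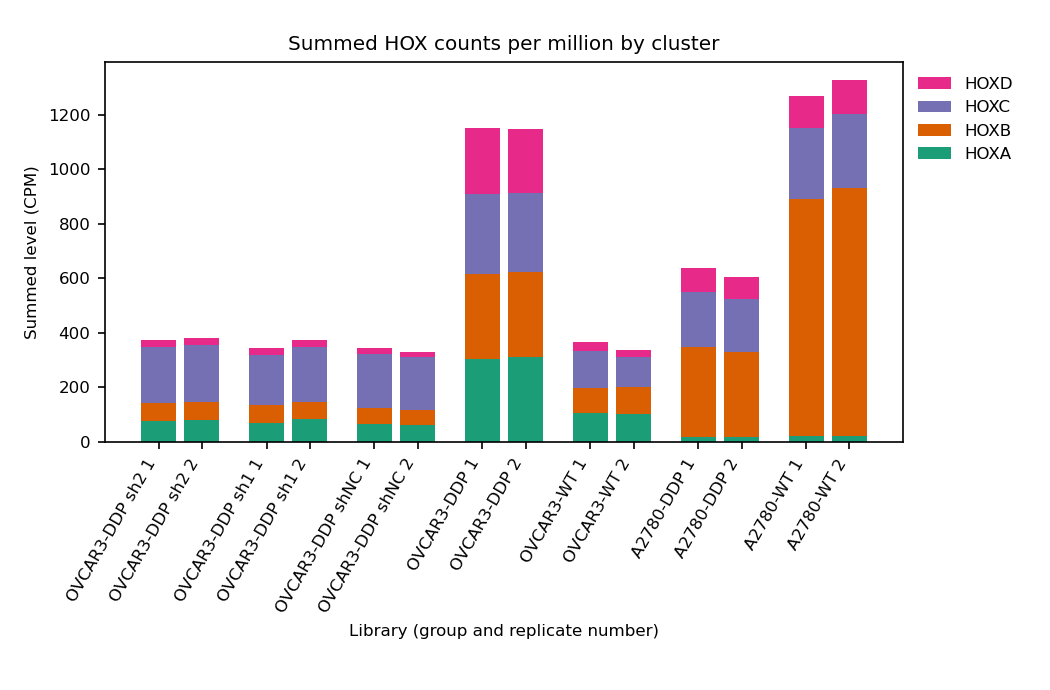
Summed CPM (vertical axis) of the HOX genes in each of the 14 libraries (bars), split by cluster. The OVCAR3-DDP-labelled libraries, at 1151 and 1148 CPM, stand about as high as A2780-WT, while the hairpin libraries stay at 329.96 to 379.7 CPM, and HOXA is almost missing from A2780.

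A member was counted as on in a group when both libraries had at least 1 CPM. By this rule 24 members were on with sh2, 25 with sh1, 26 with shNC, 36 in the OVCAR3-DDP-labelled libraries, 26 in OVCAR3-WT, 27 in A2780-DDP and 27 in A2780-WT. The 3 that stayed off in the OVCAR3-DDP-labelled libraries were HOXB1, HOXC5 and HOXD12, and these were on in no group. HOXB1, which marks a segment of the embryonic hindbrain, never passed 0.122 CPM. A core of 15 members was on in all 7 groups: HOXA5, HOXA11, HOXB3, HOXB5, HOXB6, HOXB7, HOXB9, HOXB13, HOXC6, HOXC9, HOXC10, HOXC13, HOXD3, HOXD8 and HOXD9. HOXD1 had 0 counts in every OVCAR3-WT and hairpin library, which allows up to 0.0353 CPM in OVCAR3-WT (3 counts over the group, for counting error only).

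**Figure D2:**
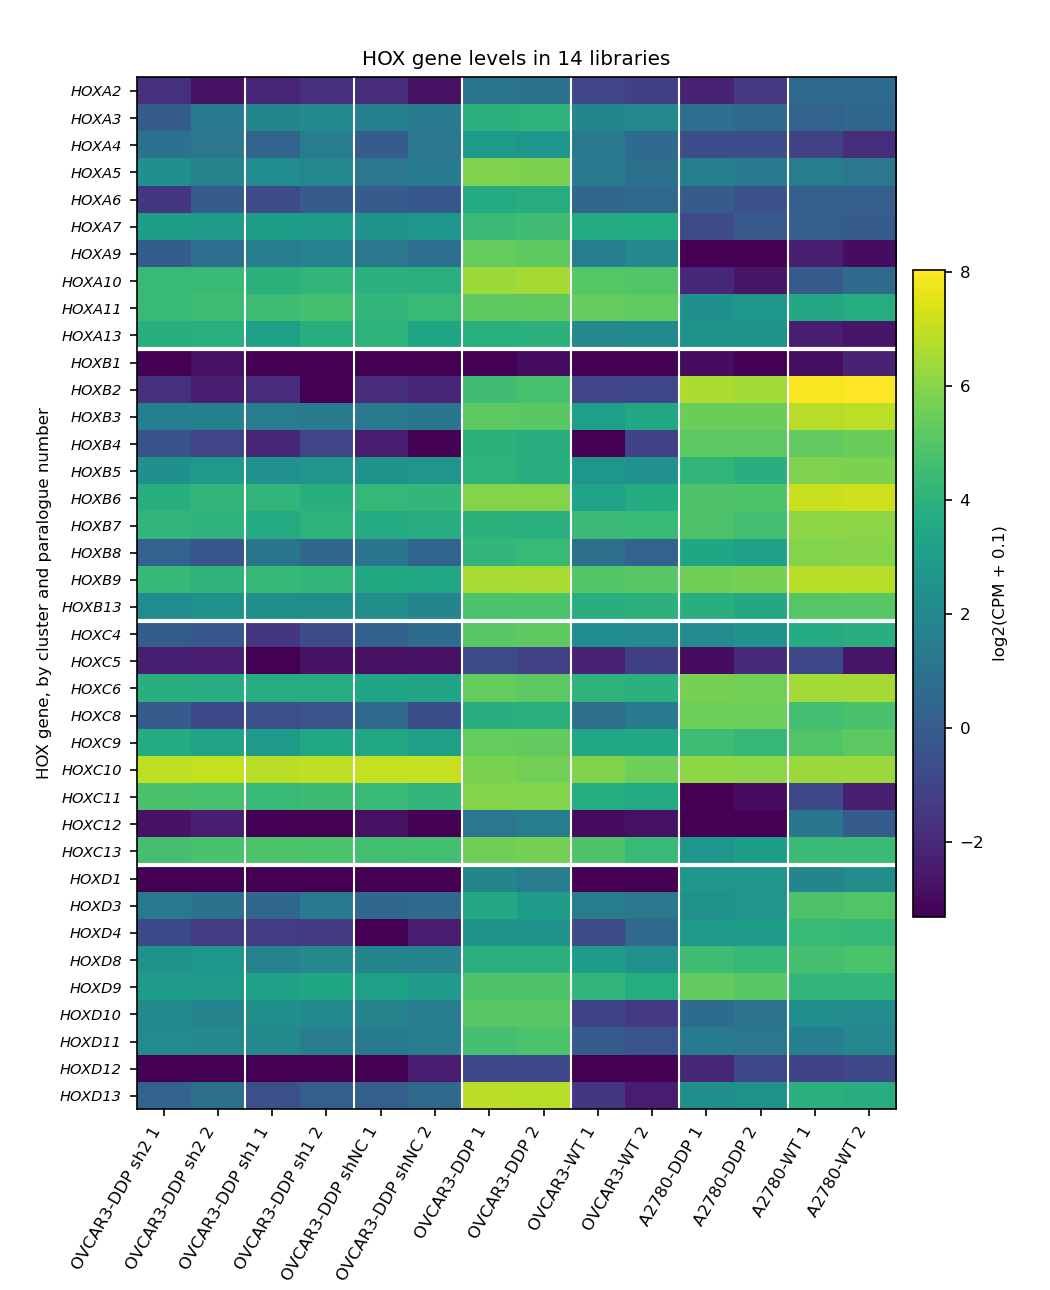
Level of 38 HOX genes (rows, by cluster and number) in each library (columns), as log2(CPM + 0.1) in colour. The columns of the OVCAR3-DDP-labelled libraries are bright in all 4 clusters, HOXB2 is brightest in A2780-WT, and HOXC10 is the brightest row in the hairpin libraries.

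Levels of different genes were compared per kilobase of merged exon. HOXC10, a gene of lumbar and hindlimb identity, led with sh2 at 54.7 ± 1.98, with sh1 at 51.4 ± 2.85 and with shNC at 55.9 ± 0.200 CPM per kb, and in OVCAR3-WT at 22.7 ± 4.21 CPM per kb (SD, n = 2 each). In the OVCAR3-DDP-labelled libraries the leader was HOXD13, the most posterior HOXD gene, which is needed for digits and the urogenital tract, at 50.9 ± 1.17 CPM per kb. HOXB9 at 37.2 ± 0.830 and HOXA5 at 33.3 ± 0.456 CPM per kb came next. HOXB2, a gene of the hindbrain, led A2780-DDP at 40.5 ± 3.78 and A2780-WT at 109 ± 5.19 CPM per kb. In A2780-WT, 5 of the next 7 were also HOXB genes, whereas in A2780-DDP HOXC10 at 29.1 ± 0.953 and HOXC8 at 24.5 ± 0.493 CPM per kb followed HOXB2.

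In OVCAR3 the resistant label went with higher HOX RNA across all 4 clusters. Of the 39 members, 34 were higher in the OVCAR3-DDP-labelled libraries than in OVCAR3-WT, where 33.4% of all 23031 genes tested were higher, and 1 was lower, where 35.2% were lower (edgeR quasi-likelihood F-test, Benjamini-Hochberg adjusted p under 0.05 over all genes). HOXB1 did not pass the filter on low counts. The median log2 fold change was 2.02 over the 38 tested members and −0.03 over all genes. In HOXD 9 of 9 rose, in HOXA 10 of 11, in HOXB 8 of 10 and in HOXC 7 of 9. The HOXD median was 4.97, or 3.67 with genes at 0 counts set to a bound, against 1.93 in HOXA, 1.70 in HOXB and 1.71 in HOXC.

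HOXD13 (ENSG00000128714.6, chromosome 2, 176092891 to 176095938, plus strand) had 116 and 112 CPM in the OVCAR3-DDP-labelled libraries, against 0.251 and 0.0814 CPM in OVCAR3-WT. The difference of 9.33 on the log2 scale (SE 0.22, edgeR adjusted p = 1.49e-12) far exceeded the spread between replicates. HOXD10, a gene of lumbar motor neurons and limbs, had 34.2 and 34.8 CPM in the OVCAR3-DDP-labelled libraries, against 0.390 and 0.285 CPM in OVCAR3-WT (log2 6.51, SE 0.22). HOXD11, which shapes the forearm and kidney with HOXA11, had 25.9 and 28.0 CPM, against 0.864 and 0.672 CPM (log2 4.97, SE 0.23). All of these sets of libraries were far apart. HOXD1, the most anterior HOXD gene, had 3.56 and 2.73 CPM in the OVCAR3-DDP-labelled libraries and 0 counts in OVCAR3-WT, at least 89.1-fold higher. HOXD12 was at least 12.7-fold higher on only 31 counts. HOXD8 and HOXD9, the middle of the cluster, rose least, by log2 1.01 (SE 0.18) and 0.73 (SE 0.14). HOXD9 had 28.9 and 29 CPM, against 17.7 and 13.2 CPM in OVCAR3-WT.

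In HOXB the gap was widest for HOXB4 and HOXB2. HOXB2 had 23.5 and 26.8 CPM in the OVCAR3-DDP-labelled libraries, against 0.418 and 0.428 CPM in OVCAR3-WT (log2 5.71, SE 0.18). HOXB4, a gene of blood stem cell expansion, had 15.6 and 14.2 CPM, against 0 and 0.366 CPM (log2 5.95, SE 0.36). HOXB8 had 18.4 and 20.3 CPM, against 1.73 and 1.14 CPM (log2 3.60, SE 0.18). HOXB9 and HOXB13, the prostate-associated posterior gene, rose by log2 1.35 (SE 0.09) and 0.75 (SE 0.12). HOXB7 was the member that fell, with 15.9 and 14.6 CPM in the OVCAR3-DDP-labelled libraries, against 21.3 and 20.5 CPM in OVCAR3-WT (log2 −0.63, SE 0.11, edgeR adjusted p = 0.000225).

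In HOXA the gap was widest for HOXA5 and HOXA9. HOXA5, a gene of lung and neck development, had 57.4 and 56.3 CPM in the OVCAR3-DDP-labelled libraries, against 2.48 and 1.75 CPM in OVCAR3-WT (log2 4.59, SE 0.18). HOXA9 had 40.3 and 37.7 CPM, against 2.82 and 3.93 CPM (log2 3.34, SE 0.19). The other Mullerian genes differed less. HOXA10 rose by log2 1.28 (SE 0.13), at 84.2 and 90.3 CPM against 32.8 and 30.6 CPM, and HOXA13 by 1.71 (SE 0.18), at 14.6 and 15.5 CPM against 4.02 and 4.09 CPM. HOXA11 was not called, with 37.2 and 37.2 CPM in the OVCAR3-DDP-labelled libraries, against 40.8 and 38.2 CPM in OVCAR3-WT (log2 −0.26, SE 0.12, edgeR adjusted p = 0.0711).

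In HOXC, HOXC10 did not differ beyond the spread between replicates, while 7 of the other members rose. HOXC10 had 54.6 and 49.6 CPM in the OVCAR3-DDP-labelled libraries, against 59.8 and 46.0 CPM in OVCAR3-WT, and the groups overlap (log2 −0.20, SE 0.12, edgeR adjusted p = 0.161). HOXC4 had 35.3 and 37.1 CPM, against 4.57 and 4.34 CPM (log2 2.85, SE 0.16). HOXC8, a gene of brachial motor neurons, rose by 2.62 (SE 0.15) and HOXC11 by 2.12 (SE 0.17). HOXC12 had 167 counts against 3, a ratio of 68.6 with a counting interval of 23.1 to 336. HOXC5 was not called at under 1 CPM in every library.

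**Figure D3:**
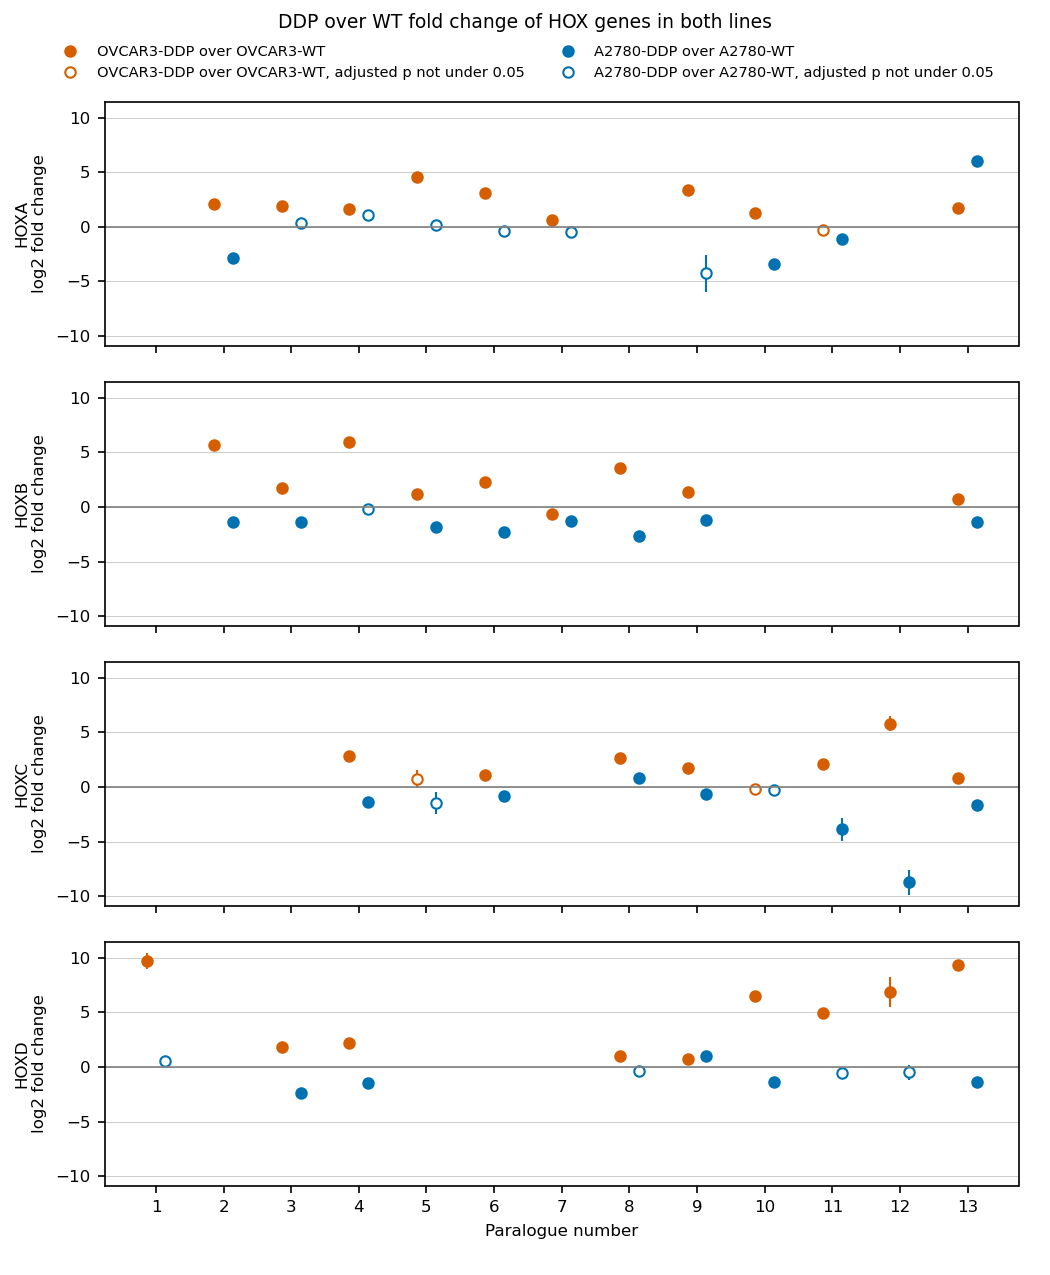
Fold change of 37 tested HOX genes in log2 (vertical axis, bars are SE) by paralogue number (horizontal axis), 1 panel per cluster, with OVCAR3 in orange and A2780 in blue, and open points for an adjusted p not under 0.05. Most orange points lie above 0 and most blue points below, and HOXA13 is the highest blue point at 6.06.

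In A2780 the resistant line held less HOX RNA, and HOXB had the most lower members. Of the 39 members, 21 were lower in A2780-DDP than in A2780-WT, where 17.3% of all genes tested were lower, and 3 were higher, where 18.0% were higher. HOXB1 did not pass the filter. The median log2 fold change over 38 tested members was −1.22, or −1.12 with genes at 0 counts set to a bound, against 0.00 over all genes. In HOXB 8 of 10 fell and 0 rose, in HOXC 6 of 9 fell, in HOXD 4 of 9 and in HOXA 3 of 11. The OVCAR3-DDP-labelled libraries were in this fit and had a part in its filter, its scaling and its estimate of spread. A fit of the A2780 libraries alone called 22 lower and 4 higher of 34 tested, and 23 of these calls were shared with the main fit.

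HOXB2, the leader of the line, had 101 and 88.4 CPM in A2780-DDP, against 246 and 263 CPM in A2780-WT (log2 −1.42, SE 0.10, edgeR adjusted p = 2.91e-07). HOXB6 had 29.8 and 30.1 CPM, against 142 and 148 CPM (log2 −2.27, SE 0.12). HOXB8 had 10.5 and 8.99 CPM, against 61.8 and 63.7 CPM (log2 −2.68, SE 0.15). In each case the groups were well separated. HOXB4 was the tested HOXB member that was not called, with 35.5 and 35.7 CPM in A2780-DDP, against 39.9 and 44.4 CPM in A2780-WT (log2 −0.23, SE 0.20). HOXB9 fell by 1.15 (SE 0.09), at 47.9 and 52.6 CPM against 112 and 113 CPM.

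HOXA13 went the other way. It encodes the most posterior HOXA protein and had 5.39 and 5.46 CPM in A2780-DDP, against 0.0962 and 0.0611 CPM in A2780-WT (log2 6.06, SE 0.33, edgeR adjusted p = 1.52e-08). It was off in A2780-WT and on in A2780-DDP, and it was the only HOXA member called higher. HOXA11 beside it had 5.13 and 6.40 CPM in A2780-DDP, against 11.4 and 13.2 CPM in A2780-WT (log2 −1.09, SE 0.14). HOXA10 had 0.145 and 0.0610 CPM, against 0.833 and 1.44 CPM (log2 −3.40, SE 0.45). HOXA9 had 0 counts in A2780-DDP and 4 in A2780-WT, at least 1.40-fold lower and not called (edgeR adjusted p = 0.0754). The long noncoding RNA HOTTIP starts next to HOXA13 and is read in the opposite direction. It had 0.927 and 0.640 CPM in A2780-DDP, against 0.0321 and 0 CPM in A2780-WT, on 53 counts against 1, a ratio of 50.3 with a counting interval of 8.65 to 2025 (edgeR adjusted p = 0.000334). HOTTIP overlaps 1.69% of the exon length of HOXA13 on the other strand, and the strand setting of the counts is not given in the sources used here.

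Among the remaining members, HOXC8 had 46.9 and 45.5 CPM in A2780-DDP, against 24.6 and 27.1 CPM in A2780-WT (log2 0.85, SE 0.12). HOXD9, a gene of limb and lumbar patterning, had 39.3 and 33.5 CPM, against 18.5 and 18.0 CPM (log2 1.01, SE 0.14). These were the other members that rose. HOXD13, so high in the OVCAR3-DDP-labelled libraries, had 4.96 and 5.52 CPM in A2780-DDP, against 14.5 and 13.4 CPM in A2780-WT (log2 −1.40, SE 0.14). HOXD3 had 5.68 and 5.97 CPM, against 29.5 and 31.1 CPM (log2 −2.37, SE 0.19), and shares 62.2% of its exon length with other genes of its strand. HOXC12, a hair and limb gene at the posterior end of HOXC, had 0 counts in A2780-DDP and 94 in A2780-WT, at least 33.0-fold lower. HOXC11 had 1 count against 17 and was called lower with both replicates. The HOXC11 call was lost without A2780-DDP replicate 1 (edgeR adjusted p = 0.0866) and without A2780-WT replicate 1 (edgeR adjusted p = 0.223).

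The difference between lines was tested as OVCAR3 effect minus A2780 effect. It was positive for 33 members, where 26.9% of all genes tested were higher, and negative for 1, where 26.9% were lower. That member was HOXA13, at −4.35 (SE 0.42, edgeR adjusted p = 1.5e-06), which was higher with the DDP label in both comparisons and by more in A2780. The difference was largest among members with counts in every group for HOXD13, at 10.73 (SE 0.27), HOXD10 at 7.90 (SE 0.29) and HOXB2 at 7.12 (SE 0.21). Of the members, 19 rose with the OVCAR3 label and fell in A2780, 3 rose in both (HOXA13, HOXC8 and HOXD9), 1 fell in both (HOXB7), and 12 rose in OVCAR3 and were not called in A2780. HOXC10 was called in neither, at log2 −0.20 and −0.25, with a line difference of 0.05 (SE 0.17). HOXA4 and HOXC5 also had no called line difference, and nor did HOXD9.

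The parental lines differed by cluster. Of the 39 members, 9 were higher in OVCAR3-WT than in A2780-WT, where 32.3% of all genes were higher, and 24 were lower, where 33.7% were lower. In HOXA 8 of 11 were higher and 1 lower, while in HOXB 0 were higher and 9 of 10 lower, and in HOXD 0 were higher and 8 of 9 lower. The cluster medians were 2.83 in HOXA, −3.53 in HOXB, −1.51 in HOXC and −3.72 in HOXD, or −3.58 in HOXD with genes at 0 counts set to a bound. This comparison shares its libraries with both comparisons above.

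The Mullerian genes stood out on the OVCAR3 side. HOXA9 had 2.82 and 3.93 CPM in OVCAR3-WT, against 0.0962 and 0.0306 CPM in A2780-WT (log2 5.74, SE 0.40). HOXA10 had 32.8 and 30.6 CPM, against 0.833 and 1.44 CPM (log2 4.84, SE 0.19). HOXA13 was higher by 5.68 (SE 0.34) and HOXA11 by 1.73 (SE 0.13). HOXA2, a hindbrain gene, was the HOXA member that was lower in OVCAR3-WT (log2 −1.88, SE 0.42). HOXC11 was the only HOXC member higher in OVCAR3-WT, with 12.9 and 12.1 CPM, against 0.449 and 0.0917 CPM in A2780-WT (log2 5.58, SE 0.30). On the A2780 side, HOXB2 had 0.418 and 0.428 CPM in OVCAR3-WT, against 246 and 263 CPM in A2780-WT (log2 −9.17, SE 0.17). HOXD1 was at least 117-fold lower in OVCAR3-WT, with 0 counts against 263.

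Few HOX genes were called with the ADAR1 hairpins. Of the 39 members, 30 passed the filter in the 6 hairpin libraries. HOXB9 was the 1 member higher with the mean of sh1 and sh2, where 5.94% of 19044 genes were higher, and 0 were lower, where 5.98% were lower. With sh1 alone 1 was higher and 0 lower, where 1.96% of genes were higher and 1.85% lower. With sh2 alone 2 were higher and 0 lower, where 7.23% were higher and 7.04% lower. The members called higher were 3.33%, 3.33% and 6.67% of those tested, close to the shares of all genes. The 0 called lower lay under the shares of all genes. With 30 members tested, such small counts are no result about the members. The contrasts share the shNC libraries.

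HOXB9 had 19.4 and 16.7 CPM with sh2 and 19.2 and 17.7 CPM with sh1, against 11.8 and 11.0 CPM with shNC. Every ADAR1 hairpin library lay above both shNC libraries. The log2 fold change was 0.55 with sh2 (SE 0.16, edgeR adjusted p = 0.0253) and 0.62 with sh1 (SE 0.16, edgeR adjusted p = 0.0338). Both calls were lost without either shNC library, with edgeR adjusted p of 0.151 and 0.216 for sh2 and of 0.207 and 0.33 for sh1. The sh2 call was also lost without either sh2 library (edgeR adjusted p = 0.331 and 0.0541), and the sh1 call in a fit of sh1 and shNC alone (edgeR adjusted p = 0.058). HOXD8 had 5.53 and 6.09 CPM with sh2, against 3.46 and 3.22 CPM with shNC (log2 0.69, SE 0.23, edgeR adjusted p = 0.0481), and its call was lost in 10 of 12 other settings. For sh2 against sh1, edgeR called 0 of 30 members higher, where 0.667% of genes were higher, and 0 lower, where 1.25% were lower. There 6 members had an unadjusted p under 0.05, and limma-voom and DESeq2's Wald test also called 0. HOXA3 was called lower in 6 of 12 other settings (log2 −2.17 to −0.73 over the 12) and HOXA9 in 2.

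Of the 9 members not tested with the hairpins, HOXB4 had 23 counts with sh2 and 12 with sh1, against 2 with shNC. HOXD4 had 17 and 13 counts, against 2. They are named because they had the most counts there, a choice made after their values were seen. The ratios were 12.2 for sh2 (counting interval 3.01 to 107) and 6.23 for sh1 (1.39 to 57.3) in HOXB4, and 9.01 (2.14 to 80.4) and 6.74 (1.53 to 61.6) in HOXD4. The levels stayed at or under 0.636 CPM. The other 7 had 0 to 7 counts in each hairpin group, and HOXD12 had 0 counts with sh2 and 0 with sh1, against 2 with shNC.

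The hairpin control itself was set against the cells it is labelled as made from. Of the 39 members, 35 were lower with shNC than in the OVCAR3-DDP-labelled libraries, where 36.8% of 24193 genes were lower, and 1 was higher, where 32.9% were higher. HOXD13 had 0.971 and 1.44 CPM with shNC, against 116 and 112 CPM in the OVCAR3-DDP-labelled libraries (log2 −6.27, SE 0.22). HOXB2 had 0.169 and 0.131 CPM, against 23.5 and 26.8 CPM (log2 −7.07, SE 0.29). HOXC10 was the member that was higher, with 130 and 131 CPM with shNC, against 54.6 and 49.6 CPM (log2 1.61, SE 0.12). HOXA13 and HOXB7 did not differ beyond their spread, at log2 0.11 (SE 0.20) and 0.05 (SE 0.15). The calls on HOXC5 and HOXD12 rested on 2 counts each with shNC, and DESeq2's Wald test did not call them (adjusted p = 0.0838 and 0.102). The HOXC5 call was lost without any 1 of the 4 libraries compared (edgeR adjusted p of 0.0524 to 0.122). The HOXD12 call was lost without shNC replicate 1 or either of the OVCAR3-DDP-labelled libraries (edgeR adjusted p of 0.0703 to 0.206). The hairpin and its library set cannot be told apart in this comparison.

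Against OVCAR3-WT the shNC libraries were nearer. Across the 39 members the Pearson correlation of group means, on log2(CPM + 0.1), was 0.90 between shNC and OVCAR3-WT, 0.73 between shNC and the OVCAR3-DDP-labelled libraries, and 0.28 between shNC and A2780-WT, given as a description. Over 17237 genes the same correlations were 0.912, 0.645 and 0.645, so HOX genes and all genes alike had shNC nearest to OVCAR3-WT. In absolute log2 distance 36 of 39 members lay nearer to OVCAR3-WT with shNC, 35 with sh1 and 35 with sh2, where 66.4%, 67.4% and 68.3% of all genes did. The test still called 7 members higher with shNC than in OVCAR3-WT, where 25.1% of genes were higher, and 14 lower, where 26.5% were lower. The shares of the 38 tested members were 18.4% and 36.8%.

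Of 16 posterior members 6 were higher with shNC and 6 lower. HOXC10 had 130 and 131 CPM with shNC, against 59.8 and 46.0 CPM in OVCAR3-WT (log2 1.49, SE 0.12). HOXD10 had 3.25 and 2.74 CPM, against 0.390 and 0.285 CPM (log2 3.35, SE 0.30). HOXD13 had 0.971 and 1.44 CPM, against 0.251 and 0.0814 CPM (log2 3.12, SE 0.42). HOXA13 had 16.0 and 10.5 CPM, against 4.02 and 4.09 CPM (log2 1.90, SE 0.21), and HOXD11 rose by 1.98 (SE 0.29). HOXC11 and the central HOXB6 rose by 0.78 (SE 0.16) and 0.95 (SE 0.15). Among those lower, HOXB3 had 2.24 and 2.13 CPM with shNC, against 8.36 and 11.0 CPM in OVCAR3-WT (log2 −1.96, SE 0.17). HOXB13 fell by 1.66 (SE 0.18) and HOXB9 by 1.35 (SE 0.12). HOXD4 had 2 counts against 88. In the sh2 and sh1 libraries HOXC10 stood at 115 to 131 CPM and HOXA13 at 9.05 to 14.7 CPM, also above every OVCAR3-WT library. HOXA9 is among the 14 that were lower, but its call was lost in 11 of 12 other settings, with adjusted p of 0.0143 to 0.298 over the 12. The HOXC8 call was lost without OVCAR3-WT replicate 2 (edgeR adjusted p = 0.126), without shNC replicate 2 (0.340) and in a fit of shNC and OVCAR3-WT alone (0.118). Without OVCAR3-WT replicate 1 the calls on HOXC6 (edgeR adjusted p = 0.0538) and HOXD8 (0.116) were lost, and without shNC replicate 1 that on HOXB7 (0.0540). The libraries differ in set as well as in label, and those cannot be told apart.

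**Figure D4:**
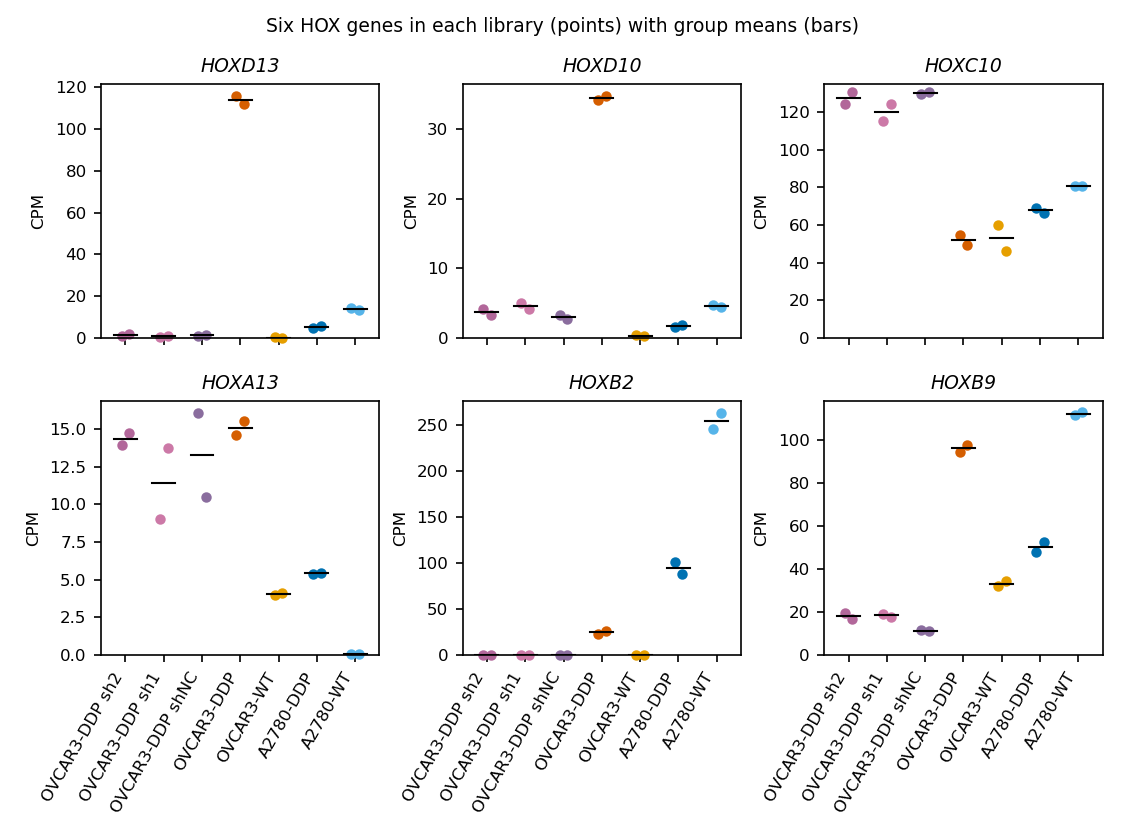
CPM (vertical axis) of 6 HOX genes in each library (points) with group means (bars). HOXD13 and HOXD10 stand apart in the OVCAR3-DDP-labelled libraries, HOXC10 in the hairpin libraries and HOXB2 in A2780-WT, while HOXA13 is lowest in A2780-WT at 0.0962 and 0.0611 CPM.

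Counts in the gene lists that follow are to be read against all genes tested, of which 33.4% were higher and 35.2% lower in OVCAR3, and 18.0% higher and 17.3% lower in A2780, with median log2 fold changes of −0.03 and 0.00. Of 18 long noncoding RNAs of the clusters, 13 were higher in the OVCAR3-DDP-labelled libraries and 1 was lower (median log2 1.37). In A2780-DDP 1 was higher, 8 were lower and the rest were not called (median log2 −0.59). HAGLR, whose exons overlap those of HOXD1 and HOXD3 on the other strand, had 19.9 and 21.3 CPM in the OVCAR3-DDP-labelled libraries, against 0 and 0.0204 CPM in OVCAR3-WT, a ratio of 1753 with a counting interval of 314 to 69269. In A2780 it had 15.6 and 14.6 CPM in A2780-DDP, against 33.8 and 30.5 CPM in A2780-WT (log2 −1.08, SE 0.13). HOXC-AS3 overlaps HOXC10 on the other strand and was the 1 that fell in OVCAR3 (log2 −0.50, SE 0.15). It had 28.9 and 27.1 CPM with shNC, against 12.3 and 11.0 CPM in OVCAR3-WT (log2 1.46, SE 0.14), beside the higher HOXC10. In A2780 the largest falls with counts in both groups included HOXA10-AS (log2 −2.58, SE 0.59) and HOXB-AS3 (log2 −2.27, SE 0.16). HOTAIR, read from the HOXC cluster, had 15.7 and 14.1 CPM in the OVCAR3-DDP-labelled libraries, against 3.68 and 5.97 CPM in OVCAR3-WT (log2 1.44, SE 0.25). HOTAIRM1, read from the HOXA cluster, had 6.78 and 6.35 CPM in OVCAR3-WT, against 0.0962 and 0.0306 CPM in A2780-WT (log2 6.68, SE 0.53).

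Of the other homeobox genes, CDX2 had the widest gap. CDX2 encodes a caudal-type factor that activates HOX genes in the embryo and sets intestinal identity. It had 66.4 and 71.0 CPM in the OVCAR3-DDP-labelled libraries and 0 counts in OVCAR3-WT, at least 1947-fold higher. With shNC it had 0.380 and 0.305 CPM and in A2780-WT 0.321 and 0.336 CPM, so the level was high in the OVCAR3-DDP-labelled libraries and under 1 CPM elsewhere. PDX1, a pancreatic ParaHox gene, was at least 226-fold higher in the OVCAR3-DDP-labelled libraries, with 8.13 and 7.81 CPM, and stood at 7.12 and 6.73 CPM in A2780-WT. Of 8 CDX, EVX and ParaHox genes, 3 were tested. High levels in the OVCAR3-DDP-labelled libraries help a gene to pass the filter on low counts, so the count that rose is no result about the list. In OVCAR3 3 rose, where 33.4% of all genes tested were higher. The third was EVX1, a gene beside HOXA13, with 38 counts against 3, a ratio of 15.6 with a counting interval of 4.95 to 79.0. EVX1 was also called higher in A2780, with 13 counts against 0, at least 4.11-fold, and this was lost without either A2780-WT library (edgeR adjusted p = 0.102 and 0.101) and without A2780-DDP replicate 1 (0.0673). CDX2 was called lower in A2780 (5 counts against 21), and this was lost without either A2780-WT library (edgeR adjusted p = 0.0955 and 0.117), without A2780-DDP replicate 2 (0.21) and in a fit of the A2780 libraries alone (0.0907).

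The TALE partners had calls in both directions in both lines. In OVCAR3 3 of 9 were higher and 2 lower (median log2 −0.06), close to or under the shares of all genes and no result about the list. PBX2 had 115 and 114 CPM in the OVCAR3-DDP-labelled libraries, against 34.5 and 48.5 CPM in OVCAR3-WT (log2 1.29, SE 0.14). PKNOX2 had 30.4 and 31.0 CPM against 0 counts, at least 869-fold higher. In A2780 4 of 9 were higher and 3 lower (median log2 0.54). MEIS3 had 39.9 and 40.8 CPM in A2780-DDP, against 1.70 and 1.47 CPM in A2780-WT (log2 4.68, SE 0.14), while MEIS1 had 7.82 and 8.93 CPM against 41.7 and 42.0 CPM (log2 −2.31, SE 0.13). MEIS2 fell by 2.19 (SE 0.16) and PBX3 rose by 1.05 (SE 0.10). MEIS3 was higher with the DDP label in both comparisons, in OVCAR3 by 1.56 (SE 0.10).

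The regulators of HOX chromatin showed mixed calls. Of 22 Polycomb genes, 12 were higher in the OVCAR3-DDP-labelled libraries and 7 lower (median log2 0.29). In A2780-DDP 4 were higher and 3 lower (median log2 −0.01). The lower count in OVCAR3 and both counts in A2780 are close to the shares of all genes. The core subunit genes EZH2 and EED were lower with the DDP label in both comparisons. EZH2 was lower by 0.52 (SE 0.08) in OVCAR3 and by 0.57 (SE 0.08) in A2780. EED was lower by 1.04 (SE 0.12) and 0.85 (SE 0.13). In OVCAR3 the reader gene CBX7 rose by 1.48 (SE 0.11), and the polyhomeotic genes PHC3 and PHC1 by 1.99 (SE 0.11) and 1.20 (SE 0.13). PHF19 and RBBP7 fell there by 1.19 (SE 0.09) and 0.66 (SE 0.09). Of 14 MLL and trithorax genes, 9 were higher and 2 lower in OVCAR3 (median log2 0.43), and 2 were higher and 4 lower in A2780 (median log2 −0.11), where all genes stood at 18.0% and 17.3%. MEN1, which encodes the MLL partner menin, rose by 1.32 (SE 0.09) in OVCAR3, and the methyltransferase gene KMT2C by 1.44 (SE 0.16), while DPY30 fell by 0.84 (SE 0.12). In A2780, ASH2L and KDM6A fell by 0.71 (SE 0.10) and 0.69 (SE 0.11). DOT1L, a histone methyltransferase gene, was higher in OVCAR3 (log2 1.12, SE 0.10) and lower in A2780 (log2 −0.56, SE 0.10).

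Retinoic acid switches on HOX genes in the embryo, and of 17 genes of its pathway 14 were tested. In OVCAR3 9 were higher and 4 lower (median log2 0.83), and in A2780 4 were higher and 1 lower (median log2 0.05), beside the shares of all genes given above. High levels in a group help a gene to pass the filter on low counts, as with CYP26A1 below. These counts and medians are therefore no result about the list. CRABP2, which carries retinoic acid to its receptors, had 205 and 213 CPM in the OVCAR3-DDP-labelled libraries, against 1.87 and 0.672 CPM in OVCAR3-WT (log2 7.26, SE 0.26), and it also rose in A2780 (log2 1.60, SE 0.21). CYP26A1, which degrades retinoic acid and is induced by it, had 1.97 and 2.73 CPM, against 0.0279 and 0 CPM in OVCAR3-WT, on 162 counts against 1, a ratio of 199.5 with a counting interval of 35.3 to 7928. In A2780-DDP it had 27 counts against 1 in A2780-WT, a ratio of 25.6 with a counting interval of 4.23 to 1050. ALDH1A3, which makes retinoic acid, was lower in OVCAR3 (log2 −3.33, SE 0.15) and higher in A2780 (log2 1.11, SE 0.13). STRA6, which takes up retinol, fell by 3.34 (SE 0.12) in OVCAR3.

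Protein-coding genes that flank the clusters had calls in both directions. Of 19 listed, 17 were tested, and in OVCAR3 5 were higher and 4 lower (median log2 0.15), in A2780 3 higher and 4 lower (median log2 −0.12). These counts are near or under the shares of all genes in OVCAR3 and near them in A2780. CALCOCO1 beside HOXC rose by 1.80 (SE 0.14) in OVCAR3, and TAX1BP1 beside HOXA fell by 0.78 (SE 0.09). The HOXD neighbours are named for their place. Beside HOXD, MTX2 had a log2 fold change of −0.29 (SE 0.12), LNPK −0.07 (SE 0.11) and ATP5MC3 −0.11 (SE 0.13) in OVCAR3, where HOXD13 rose by 9.33. Beside HOXB in A2780, SNX11 fell by 1.37 (SE 0.11) and CALCOCO2 by 0.53 (SE 0.09), and CBX1 was not called (log2 −0.12, SE 0.08). MTX2 was called at an edgeR adjusted p = 0.0497 and was lost in 11 of 13 other settings.

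Shared exons limit some of these values. In GENCODE 29, HOXD4 shares 80.5% of its exon length with other genes of its strand, HOXD3 62.2% and HOXC5 59.9%, and HOXA7 and HOXD1 overlap genes of the other strand over 62.5% and 58.1%. Reads from such stretches could have been dropped or counted for a neighbour, so these levels are uncertain.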

How the data were processed

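RNA was measured in 14 libraries of 7 groups of 2, taken from the labels. The deposited values are raw counts per gene, made by the authors from total RNA. Per the submitters' processing notes, the tools included FastQC 0.11.9, STAR 2.7.8a, SAMtools and HTSeq 2.0.3, with GRCh38.p13. The annotation release, the layout of the reads and the strand setting were not given in the sources used here. HTSeq's 5 summary lines were left out of totals: 48.7% to 50.0% of tallied reads had no feature, 2.09% to 2.48% were ambiguous and 2.36% to 4.99% were not uniquely aligned. 47 PAR_Y records without counts were left out.

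CPM, exon lengths (GENCODE 29) and tests were computed here with Python 3.11.15, R 4.3.3 and edgeR 4.0.16. The main test was edgeR's quasi-likelihood F-test with TMM scaling and filterByExpr at a minimum count of 10, and p-values were Benjamini-Hochberg adjusted over all genes at 0.05. The 8 libraries without hairpins were fitted together (23031 genes), the 6 hairpin libraries together (19044), and all 14 for shNC against untransduced cells (24193). SE is the fold change divided by the square root of F, an approximation. Alternatives used DESeq2 1.42.0, limma 3.58.1, other scaling and filters, a replicate block and fits without each library.

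The HOX members were taken by symbol. Besides them the text names the genes of 7 lists (TALE cofactors, Polycomb, MLL and trithorax, CDX, EVX and ParaHox, retinoid pathway, cluster long noncoding RNAs, flanking genes) whose called change was largest, at most 3 each way per list and comparison, and those placed next to a named member. Results that name some genes of these sets are not reported here. Members and lists were chosen with earlier results of these data known. Where a group had 0 counts, a fold is a bound against 3 counts over the group. Intervals are exact at 95% and, like floors, cover counting error only. Replicates differed by more than sampling noise in every group (chi-square per gene of 3.88 to 31.5), and each was counted as its own sample.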

Additional observations from a re-analysis of the deposited data

Results flagged for a closer look

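For 34 HOX members the effect of the DDP label differed between the lines by the test of the difference itself (edgeR quasi-likelihood F-test, adjusted p under 0.05). The values of 33 of them are given. Each value is the OVCAR3 effect minus the A2780 effect on the log2 scale, and the OVCAR3 side rests on the OVCAR3-DDP-labelled libraries, whose label is in doubt. In HOXA the difference was 5.01 for HOXA2, 1.59 for HOXA3, 4.43 for HOXA5, 3.48 for HOXA6, 1.17 for HOXA7, 7.59 for HOXA9, 4.69 for HOXA10 and 0.83 for HOXA11. HOXA13 was the member with a negative difference, at −4.35.

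In HOXB it was 7.12 for HOXB2, 3.06 for HOXB3, 6.18 for HOXB4, 3.03 for HOXB5, 4.56 for HOXB6, 0.66 for HOXB7, 6.28 for HOXB8, 2.50 for HOXB9 and 2.14 for HOXB13. In HOXC it was 4.20 for HOXC4, 1.90 for HOXC6, 1.77 for HOXC8, 2.39 for HOXC9, 5.99 for HOXC11, 14.54 for HOXC12 and 2.41 for HOXC13. In HOXD it was 9.10 for HOXD1, 4.16 for HOXD3, 3.68 for HOXD4, 1.36 for HOXD8, 7.90 for HOXD10, 5.47 for HOXD11, 7.38 for HOXD12 and 10.73 for HOXD13. HOXA9, HOXC12, HOXD1 and HOXD12 had a group with 0 counts, so the size of their difference depends on the prior count and is no bound.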

How the results depend on the processing

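In both the OVCAR3 and the parental comparison the called members stayed called in the settings run, with 2 exceptions. A mean of at least 5 CPM left 30 members to test, of which 28 and 27 were called, and a fold of at least 2 kept 30 of 35 and 32 of 33. Leaving out each library gave 35 to 37 called members for OVCAR3, 23 to 24 for A2780, 33 to 35 for the line difference and 33 to 34 for the parental lines. The same gave 19 to 21 for shNC against OVCAR3-WT and 34 to 35 for shNC against the OVCAR3-DDP-labelled libraries. For the hairpins it gave 0 to 4 for the mean of sh1 and sh2, 0 to 3 for sh1, 0 to 2 for sh2 and 0 to 4 for sh2 against sh1. With sh2, the called members numbered 1 under DESeq2 size factors, upper-quartile scaling or limma-voom, 4 in a fit of all 14 libraries, 5 in a fit of sh2 and shNC alone, and 0 at a fold of at least 2. For the mean of sh1 and sh2 they numbered 3 with no filter, 3 in the fit of 14 libraries and 0 at a fold of at least 2. For sh1 they numbered 2, 2 and 0 in these settings, and 0 in a fit of sh1 and shNC alone. For sh2 against sh1 they numbered 2 with no filter and 2 in the fit of 14 libraries. Against OVCAR3-WT, 10 members were called with shNC at a fold of at least 2. KMT2D, not called with shNC against OVCAR3-WT (log2 −0.01), ranged over −0.46 to 0.64 without each library and was called higher without OVCAR3-WT replicate 2 (edgeR adjusted p = 0.0146). Upper-quartile scaling moved the median of all genes by 0.13 in OVCAR3 and 0.11 in the line difference, and a mean of at least 5 CPM moved it by 0.11 in OVCAR3. The causes were not tested.

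With the replicate number as a block, 1 member was called with sh2 and 1 for sh2 against sh1. The labels do not say that numbers pair samples, and same-numbered deviations correlated at −0.281 to 0.488 over 13044 genes. At 2 libraries a group and under 1 CPM, members such as HOXC5, HOXD12 and HOXB1 allow no firm statement.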
